A study of Homo sapiens with 6 samples.

Results

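Long noncoding RNAs named LINC and a number were measured in T24 cells after silencing of TRIM28. They were chosen by name and by raw counts, as genes with 30 or more counts in at least 3 of the 6 libraries. Of 2236 genes so named among 78932 genes counted, 137 met this rule, 100 further ones passed only the lower minimum for testing, and 1999 were not tested. No count was seen in any library for 931 of the 2236. T24 is an established human urothelial carcinoma cell line. All cultures shared the line, the medium and 1 batch label, and they differed in the siRNA. The control group, siNC, held 3 cultures transfected with a control siRNA, and the siTRIM28 group held 3 cultures transfected with siRNA against TRIM28. The labels do not give the time after transfection or which TRIM28 siRNA was used. Poly(A) RNA was sequenced, and the authors deposited raw counts per gene on GRCh38.

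LINC is the stem that human gene nomenclature gives to long intergenic noncoding RNAs without a more specific name. Such RNAs are transcribed by RNA polymerase II, often spliced and polyadenylated, and mostly less abundant than messenger RNAs. Many stay in the nucleus, where the RNA exosome degrades a part of them, and their exons are often derived from transposons. TRIM28, also called KAP1, is a corepressor that KRAB zinc finger proteins bring to chromatin, many of its sites being retrotransposons, where it recruits histone H3 lysine 9 methylation.

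TRIM28 itself (ENSG00000130726, chromosome 19, 58544064 to 58550649) had 1419, 1393 and 1382 counts in the siNC libraries and 130, 96 and 109 in the siTRIM28 libraries. Every siTRIM28 library was far below every siNC library, which fits the labels. The log2 fold change was −3.54 (SE 0.0723, edgeR adjusted p = 1.03e-10), and the exact two-sided permutation test gave p = 0.1, the smallest that 3 libraries against 3 allow. The 6 libraries held 11712623 to 14018052 counts. Levels given as CPM are counts scaled to library size with TMM factors. Libraries of a group were not equally alike. Chi-square per degree of freedom was 1.08 for siNC replicates 1 and 2 and 1.24 for siTRIM28 replicates 2 and 3, against 4.59 to 6.99 for the other pairs within a group, so siNC replicate 3 and siTRIM28 replicate 1 stood apart. Markers of the line were uneven. Of 4 mesenchymal markers 4 were above 1 CPM in both groups, with VIM at 1102 CPM in siNC, and of 6 epithelial markers 3 were, with EPCAM and CDH1 at 6 counts or fewer in every library. Of 8 luminal urothelial markers 2 were above 1 CPM in both groups (PPARG and FOXA1), of 5 basal ones 1 (CD44), of 4 leukocyte markers 1 (CD68, with CD3E at 0), and of 3 fibroblast and 3 endothelial markers none. Summed fibroblast markers ran from 0.706 to 1.37 CPM in siNC and from 2.57 to 3.97 in siTRIM28, almost all from COL1A1, with DCN and LUM at 2 counts or fewer. UPK1A, a luminal uroplakin, rose from 0.874 to 3.41 CPM (log2 fold change 1.94). CD44 fell from 717 to 435 CPM (log2 fold change −0.72), and TP63, a basal factor below 1 CPM, was called higher (log2 fold change 1.01, edgeR adjusted p = 0.049985). The part of these markers in the LINC results was not tested.

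Most LINC RNAs that differed were higher after TRIM28 silencing. Of the 137, 61 were called higher and 11 lower at an adjusted p under 0.05, and 65 were not called (edgeR's quasi-likelihood test, Benjamini-Hochberg adjustment over 18474 genes). Among all genes tested 41.8% were called, 21.3% higher and 20.5% lower, whereas 44.5% of the LINC RNAs were called higher and 8.03% lower. The median log2 fold change was 0.27 for the 137 and 0.02 for all genes tested, and the quartiles of the LINC RNAs were −0.08 and 0.73. A fold change of at least 0.58 on the log2 scale together with the adjusted p was met by 47 rises and 3 falls, against 9.51% and 7.51% of all genes tested. Every siTRIM28 library was above every siNC library for 69 LINC RNAs (50.4%) and below for 14 (10.2%), against 26.3% and 25.7% of all genes tested. DESeq2 called 50 higher and 6 lower, and the falls numbered 6 without siNC replicate 1 and 7 without siTRIM28 replicate 2. In bulk RNA, fewer cells that make an RNA and less RNA per cell cannot be told apart.

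**Figure D1:**
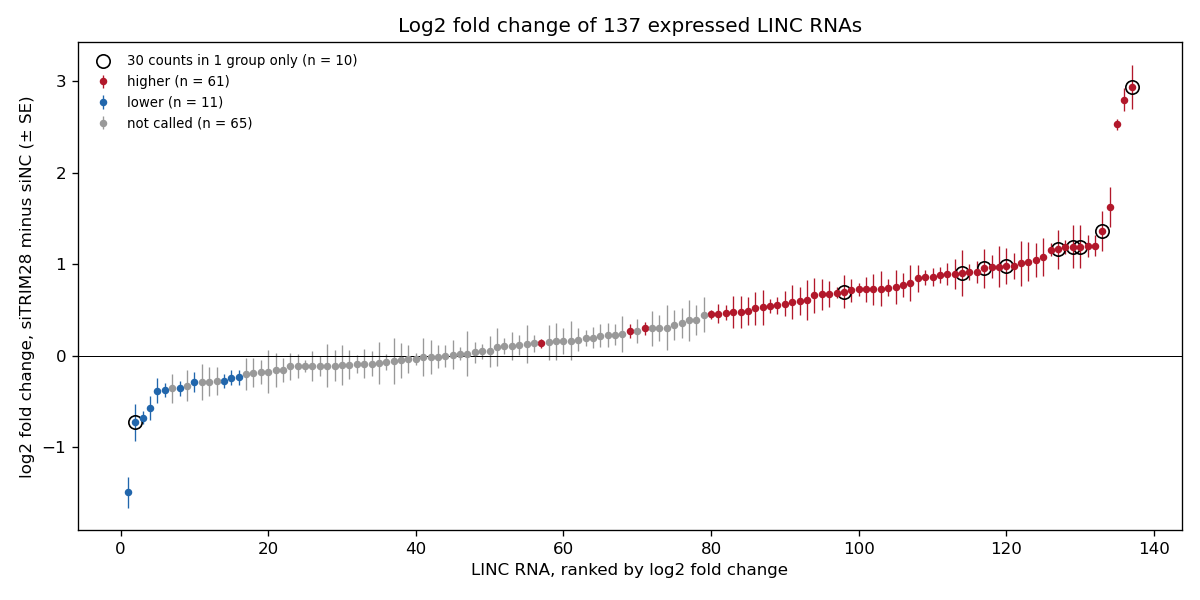
Log2 fold change (siTRIM28 minus siNC, vertical axis) of the 137 expressed LINC RNAs, ranked along the horizontal axis; bars are the SE from edgeR, colours give the call and black circles the 10 LINC RNAs with 30 counts in 1 group only. The 61 red points of higher RNAs fill the right side and reach 2.94, whereas 11 blue points of lower RNAs reach −1.50.

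The count minimum bears on these shares. A LINC RNA that reached 30 counts in 1 group only had to differ between the groups, and 10 of the 137 did so, 9 of them with high counts in siTRIM28 and LINC00317 with high counts in siNC. Without these 10, 52 of 127 (40.9%) were called higher and 10 (7.87%) lower, with a median of 0.22. A log2 fold change of at least 0.58 was then met by 38 rises and 2 falls. All siTRIM28 libraries were above all siNC libraries for 60 (47.2%) of the 127 and below for 13 (10.2%). The effect of the minimum is not fully removed in this way. Some of the 127 reached 30 counts in more libraries of 1 group, such as LINC03047 in 1 siNC and 3 siTRIM28 libraries. With 30 counts required in every library, 40 of 104 were called higher and 10 lower. With the mean over the 6 libraries in place of the 3 libraries, 133 LINC RNAs had 30 counts, of which 58 were higher and 11 lower. The background also moved little with the count level. Among 14681 genes of any name with 30 counts in 3 libraries, 47.8% were called, 23.3% higher and 24.5% lower. Among 4727 genes with mean counts between the quartiles of the LINC RNAs (43.2 and 160.0 counts), 38.1% were called, 20.1% higher and 18.0% lower. Rises were called at all levels, with 22 of the 47 LINC RNAs of lowest mean counts called higher, 17 of the 44 in the middle and 22 of the 46 of highest mean counts. The 47 of lowest mean counts include all 10 that reached 30 counts in 1 group only. Their share called higher thus rests in part on 9 RNAs that had to differ. Of the 11 falls, 8 were among those of highest mean counts.

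**Figure D2:**
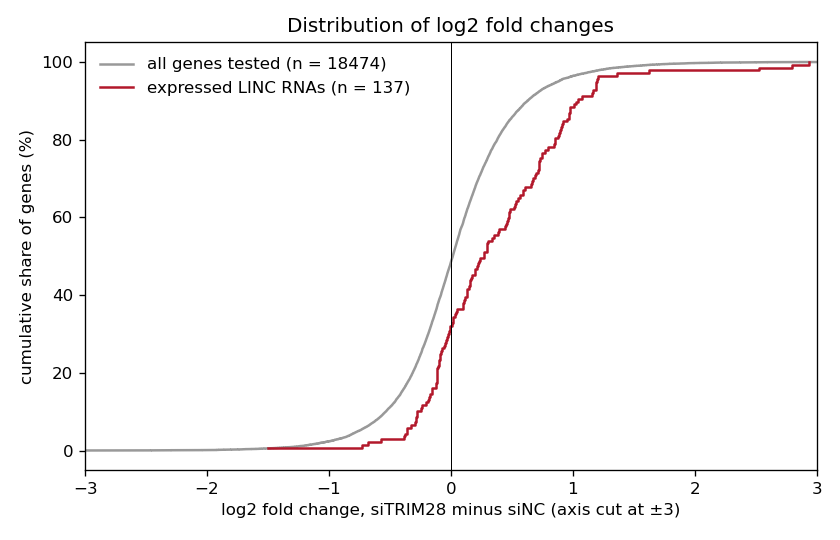
Cumulative share of genes (vertical axis, percent) by log2 fold change, siTRIM28 minus siNC (horizontal axis, cut at ±3), for all 18474 genes tested and the 137 expressed LINC RNAs. The LINC curve lies to the right of the other at both quartiles and at the median. The lower quartile was −0.08 against −0.25, the median 0.27 against 0.02 and the upper quartile 0.73 against 0.30.

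The nearest comparison groups are other noncoding classes at the same count minimum. Of 464 genes named as antisense RNAs (-AS), 127 were called higher and 55 lower, with a median log2 fold change of 0.10. Of 187 divergent transcripts (-DT), which start next to a coding gene's promoter in the other direction, 55 were higher and 14 lower, with a median of 0.17. Among the protein-coding genes tested, 21.6% were called higher and 26.2% lower, with a median of −0.02. No test of the difference between these classes was run. LINC RNAs took a small part of each library. Their counts made up 0.167%, 0.166% and 0.161% of the siNC libraries and 0.222%, 0.212% and 0.220% of the siTRIM28 libraries. LINC02970 and LINC00370 together held 1673 to 1752 counts in siNC and 4285 to 4395 in siTRIM28. Without both, the shares were 0.155%, 0.153% and 0.148% in siNC and 0.191%, 0.176% and 0.183% in siTRIM28, so the groups still did not overlap.

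Levels of different RNAs were compared per length, as RPKM from the normalised counts and the deposited gene length. The median level of the 137 was 1.01 RPKM, with a range from 0.0975 to 67.5, against a median of 2.77 for all genes tested. The 6 highest were LINC02951 (67.5), LINC02067 (63.1), LINC02970 (24.3), LINC00460 (22.7), LINC00370 (17.9) and LINC01766 (17.0). In 3 of these, 1 library stood apart from the rest of its group. LINC02951, whose counted length is only 436 bases, had 363, 349 and 291 counts in siNC and 662, 325 and 328 in siTRIM28. The excess was in siTRIM28 replicate 1, and the log2 fold change of 0.47 (SE 0.175, edgeR adjusted p = 0.0477) became 0.16 without that library (edgeR adjusted p = 0.0728). LINC02067 had 2607, 2464 and 2233 counts in siNC and 3230, 1735 and 1882 in siTRIM28, so that the groups overlapped. Its log2 fold change was −0.01 (SE 0.128, edgeR adjusted p = 0.956), and −0.24 without siTRIM28 replicate 1 (edgeR adjusted p = 1.13e-04). LINC01766 had 825, 754 and 366 counts in siNC and 589, 660 and 740 in siTRIM28. Here siNC replicate 3 was low and the difference of 0.16 was not called (SE 0.216, edgeR adjusted p = 0.581).

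**Figure D3:**
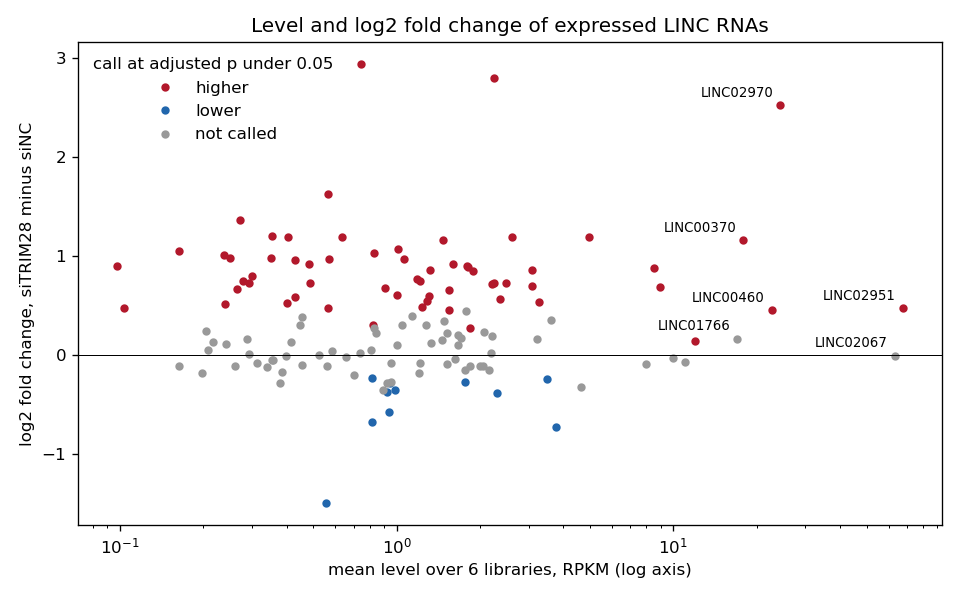
Mean level over the 6 libraries in RPKM (horizontal log axis) and log2 fold change (vertical axis) of the 137 expressed LINC RNAs, coloured by call, with the 6 highest named. LINC02970 combines a level of 24.3 RPKM with a log2 fold change of 2.53, whereas LINC02067 at 63.1 RPKM lies at −0.01.

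LINC02970 (ENSG00000273812, chromosome 20, 62596732 to 62603115, minus strand) had the largest change among the abundant LINC RNAs. It had 250, 245 and 215 counts in the siNC libraries and 1389, 1199 and 1222 in the siTRIM28 libraries. The groups were far apart, at 17.5 ± 0.592 CPM in the control and 101 ± 2.01 after silencing (mean ± SD, n = 3 each). This was a log2 fold change of 2.53 (SE 0.0582, edgeR adjusted p = 1.37e-10). The gene overlapped no other gene of the table on either strand. Its nearest protein-coding gene was SLCO4A1, an organic anion transporter 39388 bases away, which rose by 0.69 on the log2 scale from 381, 358 and 326 counts to 548, 519 and 527 (SE 0.0698, edgeR adjusted p = 1.15e-05).

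LINC03047 (chromosome 8, 102528513 to 102539063) rose from 31, 27 and 27 counts to 214, 169 and 171. The groups were far apart, and the log2 fold change was 2.80 (SE 0.122). In siNC only replicate 1, at 31 counts, reached the count minimum, so LINC03047 met the rule through its siTRIM28 libraries. Its values are therefore a description without a test. ODF1, its nearest coding gene, was not tested for want of counts. LINC00589, also on chromosome 8, rose from 36, 41 and 27 counts to 143, 83 and 75, a log2 fold change of 1.62 (SE 0.215, edgeR adjusted p = 9.67e-05). Its siTRIM28 replicate 1 was the highest of the 3. The overlapping opposite-strand gene ENSG00000300359 rose with it, from 17, 23 and 12 counts to 111, 54 and 47.

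LINC00370 (chromosome 13, 109265416 to 109307831) rose at a high level. Its counts were 1502, 1485 and 1458 in siNC and 3006, 3086 and 3094 in siTRIM28. No group overlap was seen, with 109.9 ± 3.84 CPM against 246 ± 26.7 (mean ± SD, n = 3 each) and a log2 fold change of 1.16 (SE 0.0703, edgeR adjusted p = 2.08e-07). The overlapping opposite-strand gene ENSG00000303952 had 292, 318 and 295 counts and then 479, 629 and 637, a log2 fold change of 1.07. LINC02918 (chromosome 1, 43937896 to 43946551) rose from 130, 159 and 132 counts to 332, 273 and 288, a log2 fold change of 1.19 (SE 0.0817, edgeR adjusted p = 5.59e-07). It lay 399 bases from IPO13, which encodes a nuclear transport receptor, and IPO13 fell from 127, 130 and 129 counts to 79, 55 and 69 (log2 fold change −0.82, SE 0.125, edgeR adjusted p = 2.56e-04). The neighbours thus moved in opposite directions.

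LINC00472 and LINC01089 have been described as RNAs lowered in breast tumours. LINC00472 (chromosome 6, 71187161 to 71420174) rose from 88, 73 and 67 counts to 181, 144 and 164 (log2 fold change 1.20, SE 0.112, edgeR adjusted p = 6.07e-06). OGFRL1, which overlaps it on the opposite strand, fell by 0.34 on the log2 scale. LINC01089 (chromosome 12, 121795267 to 121803906) rose from 87, 101 and 78 counts to 238, 157 and 174 (log2 fold change 1.19, SE 0.118, edgeR adjusted p = 9.89e-06). The opposite-strand gene ENSG00000274292 followed it library by library, with 75, 85 and 68 counts and then 207, 130 and 140.

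The other LINC RNAs among the 12 largest rises reached 30 counts in siTRIM28 only, and their values are a description without a test. LINC01910 (chromosome 18) had 6, 7 and 5 counts in siNC and 50, 40 and 41 in siTRIM28, a log2 fold change of 2.94. LINC01409 had 21, 13 and 21 counts and then 47, 42 and 43. LINC01273 had 17, 29 and 16 counts and then 43, 43 and 46. LINC01546 on the X chromosome had 22, 24 and 14 counts and then 56, 40 and 32, and LINC02361 had 18, 20 and 18 and then 37, 37 and 43. LINC00513, LINC02885, LINC01588 and LINC00165 completed the 9, with log2 fold changes from 0.70 to 0.98. At the count minimum, LINC01588 and LINC02377 were just inside with 30 counts in their library of rank 3 and LINC00513 with 32. LINC01122 at 29, and LINC02175 and LINC02422 at 28 each, were just outside.

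**Figure D4:**
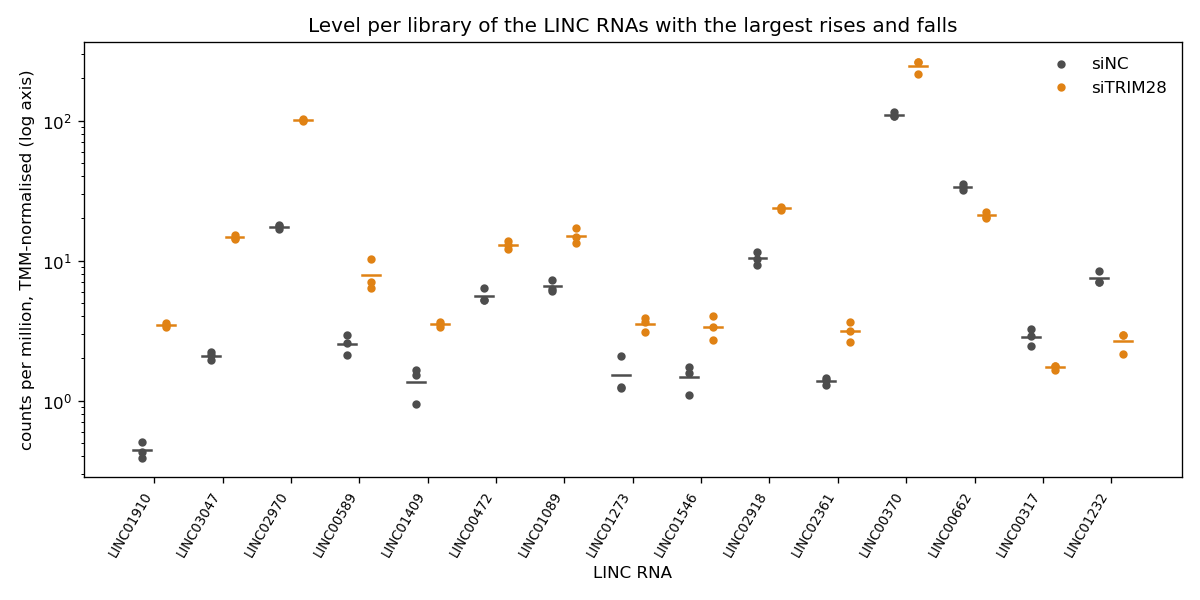
TMM-normalised CPM (vertical log axis) of the 12 LINC RNAs with the largest rises and, at the right, the 3 with the largest falls; points are single libraries and bars the group means of 3. The 15 were chosen for groups that do not overlap, so the siTRIM28 points lie wholly on 1 side of the siNC points. For LINC02970 the mean went from 17.5 to 101 CPM. LINC01910, LINC01409, LINC01273, LINC01546, LINC02361 and LINC00317 reached 30 counts in 1 group only.

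Further rises at high counts were named after their values were seen. LINC00941 had 532, 586 and 502 counts in siNC and 858, 795 and 826 in siTRIM28 (log2 fold change 0.72, SE 0.0674, edgeR adjusted p = 6.07e-06). LINC02577 had 504, 478 and 447 counts and then 766, 714 and 658, a log2 fold change of 0.69. LINC00702 had 353, 425 and 381 counts and then 758, 606 and 592, a log2 fold change of 0.85. LINC01444 rose from 172, 159 and 152 counts to 300, 234 and 293, and LINC01291, 15594 bases from the hexokinase gene HK2, from 134, 109 and 130 to 247, 191 and 192. Each of these had all siTRIM28 libraries above all siNC libraries. The smallest called rise was that of LINC01029, with 1213, 1301 and 1176 counts and then 1413, 1198 and 1165, a log2 fold change of 0.14 (SE 0.0479, edgeR adjusted p = 0.0394). Its groups overlapped in raw counts and not in CPM, where siNC lay between 87.3 and 94.0 and siTRIM28 between 98.4 and 101.2. LINC01018 had 190, 186 and 211 counts and then 377, 218 and 223, and siTRIM28 replicate 1 stood apart at 26.9 CPM beside 18.4 and 18.8 in the other siTRIM28 libraries.

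Of the 65 LINC RNAs without a call, 4 of the more abundant were also named after their values were seen. LINC01473 had 570, 578 and 502 counts and then 634, 452 and 477, a log2 fold change of 0.02 (SE 0.0719, edgeR adjusted p = 0.848). LINC00630 had 479, 491 and 511 counts and then 518, 514 and 540, a log2 fold change of 0.19 (edgeR adjusted p = 0.0943). LINC01278 had 427, 438 and 389 counts and then 386, 336 and 355, with a log2 fold change of −0.11 that was not called, with groups that did not overlap (edgeR adjusted p = 0.171). LINC02568, which overlaps the carbonic anhydrase gene CA12 on the opposite strand, had 180, 186 and 158 counts and then 188, 83 and 119, and in CPM siTRIM28 replicate 1 (13.4) lay within the siNC range (12.4 to 13.4) while the other siTRIM28 libraries lay below it (7.01 and 10.1). CA12 was called lower with a log2 fold change of −0.56.

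Few LINC RNAs fell. LINC01232 (chromosome 13, 99479448 to 99501212) dropped from 117, 98 and 90 counts to 30, 35 and 35. All 3 siTRIM28 libraries were well below the siNC libraries, with 7.52 ± 0.783 CPM against 2.68 ± 0.470 (mean ± SD, n = 3 each) and a log2 fold change of −1.50 (SE 0.169, edgeR adjusted p = 2.82e-05). TM9SF2, a membrane protein gene that overlaps it on the opposite strand, had 1147, 1168 and 1108 counts and then 1150, 1043 and 1061, with a log2 fold change of 0.03 (SE 0.0518, edgeR adjusted p = 0.641). LINC00662 (chromosome 19, 27681072 to 27793977) dropped from 466, 440 and 453 counts to 289, 263 and 239 (log2 fold change −0.68, SE 0.0703, edgeR adjusted p = 1.45e-05). LINC02987 starts within its span on the other strand, and it had 289, 307 and 297 counts in siNC and 216 in each siTRIM28 library (log2 fold change −0.36, SE 0.0823, edgeR adjusted p = 0.00452). LINC00317, with 30 counts in siNC only, had 45, 34 and 37 counts and then 23, 21 and 21. The remaining 8 falls had log2 fold changes from −0.57 to −0.24 and were LINC02966, LINC01978, LINC01605, LINC02987, LINC02693, LINC01234, LINC02228 and LINC01013. LINC02693 is annotated as protein coding in GENCODE v29, and its groups overlapped.

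LINC RNAs with a record in cancer moved little or in both directions. Of 16 listed, 8 were among the 137. LINC00958, also named BLACAT2 for bladder cancer, had 810, 815 and 740 counts in siNC and 723, 699 and 719 in siTRIM28. Its groups overlapped after scaling, at 58.4 ± 0.430 and 57.1 ± 4.84 CPM (mean ± SD, n = 3 each), and the log2 fold change was −0.03 (SE 0.0663, edgeR adjusted p = 0.725). LINC00460, reported as raised in several carcinomas, rose from 1136, 1095 and 1049 counts to 1575, 1256 and 1354 (log2 fold change 0.45, SE 0.0488, edgeR adjusted p = 1.93e-05). EFNB2, an ephrin ligand gene 105662 bases from LINC00460, fell by 0.74 on the log2 scale. LINC00467 rose from 128, 130 and 134 counts to 162, 169 and 169 (log2 fold change 0.46, edgeR adjusted p = 0.00468). LINC01234 fell from 336, 370 and 317 counts to 317, 228 and 244 (log2 fold change −0.27, edgeR adjusted p = 0.0133, and 0.0587 without siNC replicate 2), and LINC00662 fell as given above. LINC00857 had 66, 68 and 52 counts and then 54, 42 and 39, a difference of −0.36 that was not called (edgeR adjusted p = 0.0878). LINC00205 and LINC00355 were not called either, at −0.09 and 0.14. Outside the count minimum, LINC00511 had 14, 11 and 19 counts and then 42, 33 and 27 and was called higher (log2 fold change 1.31, edgeR adjusted p = 0.00166). LINC01116 was tested and not called, LINC00665 had too few counts, and no gene was counted under the names of the other 5.

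Several LINC RNAs lie together. Within 100 kb of each other, 19 of the 137 formed 9 groups. In 3 groups all were called higher, in 1 all were called lower, in 3 none was called, and no group held calls in both directions. LINC01409 and LINC01273 reached 30 counts in siTRIM28 only, and without them 8 groups of 16 LINC RNAs were left, 2 of them with all called higher. Near the tip of chromosome 1, LINC00115 rose by 0.91 and LINC01128 by 0.47 on the log2 scale, and LINC01409 had a log2 fold change of 1.36. LINC00115 overlaps both others on the opposite strand, along with copies of mitochondrial genes, so these are not 3 independent measurements. On chromosome 20, LINC01275 rose by 0.90 and LINC01273, which overlaps it on the opposite strand, had a log2 fold change of 1.19. CEBPB, a bZIP transcription factor gene 2418 bases from LINC01273, rose from 371, 329 and 333 counts to 584, 538 and 579 (log2 fold change 0.83, SE 0.0761, edgeR adjusted p = 5.38e-06). About 100 kb from CEBPB, LINC01270 and LINC01271 overlap each other and had log2 fold changes of 0.23 and 0.20 that were not called (edgeR adjusted p = 0.140 and 0.208). On chromosome 18, LINC01443 and LINC01444 overlap on opposite strands and rose by 0.66 and 0.88.

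Protein-coding neighbours were read beside the LINC RNAs. The nearest coding gene lay a median of 12845 bases and at most 1612870 bases away, and it was tested for 98 of the 137. These were 91 distinct genes, of which 29 were called higher and 24 lower, beside 21.6% and 26.2% of the protein-coding genes tested. Nearest to the 61 LINC RNAs called higher, 42 distinct genes were tested, 21 of them higher and 8 lower, with a median log2 fold change of 0.24. Nearest to the 65 not called, 43 were tested, 9 of them higher and 13 lower, with a median of −0.02. Nearest to the 11 called lower, 9 were tested, with 1 higher and 3 lower. The coding gene overlapped the LINC RNA itself for 37 of the 137, which the next counts take up.

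Overlap was common, although the name means intergenic. Only 16 of the 137 overlapped no other gene of the table, whose annotation lists many long noncoding genes, and 116 overlapped a gene on the opposite strand. Of these 16, 11 were called higher and 1 lower, with a median log2 fold change of 0.47. That was 68.8% and 6.25%, beside 21.3% and 20.5% of all genes tested. LINC01546, LINC02885 and LINC00165 among these rises, and LINC00317, the fall, reached 30 counts in 1 group only and had to differ. In 85 LINC RNAs at least 1 opposite-strand gene was tested. These made 116 distinct pairs, of which 9 joined 2 of the 137, and both genes had a log2 fold change of the same sign in 84 pairs. Opposite-strand genes outside the 137, each counted once, numbered 49 for LINC RNAs called higher, of which 38 were higher and 3 lower. Without the partners of LINC00115, mostly mitochondrial pseudogenes, 32 of 42 were higher and 3 lower. For LINC RNAs called lower, 3 of 5 were lower and none higher. For those not called, 6 of 53 were higher and 4 lower. Among all genes tested, 21.3% were called higher and 20.5% lower. In 24 of the 116 pairs the ratio of the counts varied by less than 10% (coefficient of variation over the 6 libraries). LINC00938 and ENSG00000307892 were the closest, with 0.894 to 0.931 counts of the second for each count of the first. For LINC02067 and the ribosomal protein pseudogene RPL23AP42 the ratio was 1.26 to 1.34, and for LINC02951 and RAB30-DT it was 1.13 to 1.29. Both of the LINC RNAs with the highest RPKM thus followed an opposite-strand gene, including the high value in siTRIM28 replicate 1. RPL23A, the parent gene of RPL23AP42, had 46335 to 71402 counts per library with its highest value in the same library. The library kit marks strand, whether the counting used it is not given in the sources used here, and reads of such pairs cannot be told apart from the counts.

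**Figure D5:**
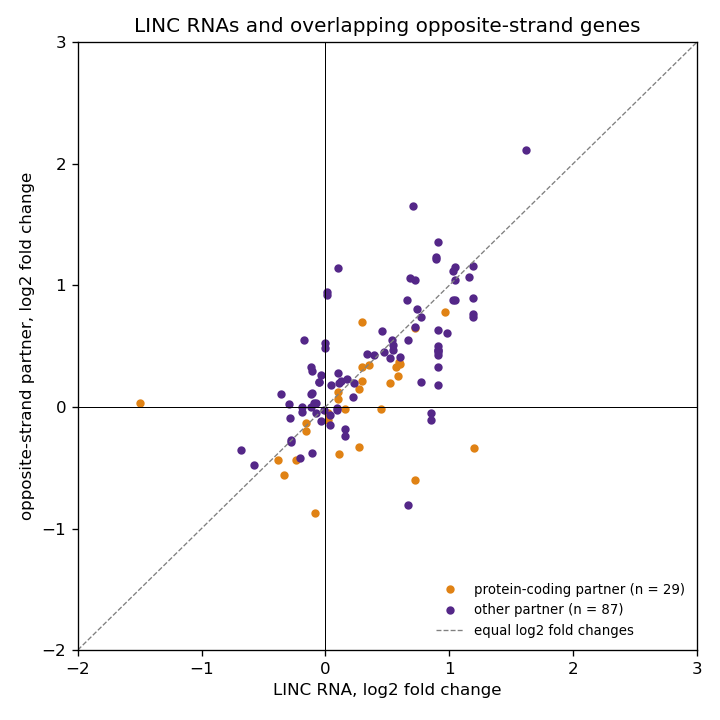
Log2 fold change of LINC RNAs (horizontal axis) and of each tested gene overlapping them on the opposite strand (vertical axis), 116 distinct pairs from 85 LINC RNAs, 29 of them with a protein-coding partner. Many points lie near the dashed line of equal change, and LINC01232, at −1.50 with a partner at 0.03, lies far from it.

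Where the partner was a protein-coding gene, 20 of 29 pairs had the same sign. In 9 pairs both were called higher, as for LINC00941 (0.72) and CAPRIN2 (0.65), an RNA-binding protein gene, and for LINC02288 (0.97) and IRF2BPL (0.78). In 2 pairs both were lower, LINC01013 (−0.24) with CCN2 (−0.43), which encodes a matricellular growth factor, and LINC01978 (−0.38) with TBC1D16 (−0.44). In 2 pairs the calls were opposite. These were LINC00472 with OGFRL1, and LINC00973, which rose by 0.72, with DCBLD2, which fell from 554, 498 and 492 counts to 330, 310 and 308. Copies elsewhere in the genome also limit single values. Of 130 LINC RNAs with a GENCODE v29 transcript, 18 matched a transcript of another locus at 95% identity or more over at least 300 bases. LINC01409 was 98.8% identical to another gene over 1879 bases and LINC00342, which rose by 0.74, 96.7% over 2185 bases. LINC01232 and LINC02966 were the 2 lower ones with such a match, over 307 and 340 bases.

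Promoter sequence was available from RefSeq (GRCh38.p14) as 300 bases from 250 before to 50 after the start of a gene, for 97 of the 137. The annotated starts differed from those of the counted genes by a median of 518 and up to 400252 bases, and 55 of the 97 windows lay within 1 kb. The AP-1 motif was searched as TGANTCA, the same on both strands. This pattern covers TGACTCA and TGAGTCA, bound by FOS and JUN dimers, and also TGAATCA and TGATTCA, and the forms were not counted apart. The pattern was in 18 of the 97 windows (18.6%), against 6.67% of 19194 genes of the table with a window. It was in 10 of 42 windows of LINC RNAs called higher, in 8 of 47 of those not called and in none of 8 of those called lower. Some of the 10 lay far from the counted start, as for LINC00513 (118903 bases), LINC00702 (24797), LINC00973 (13520) and LINC02288 (13338). Those of LINC01443, LINC02762, LINC01504 and LINC01546 lay within 1 kb. Distant windows may not be promoters of the counted RNAs. The TATA box TATAAA, searched on both strands, was in 12.4% of the LINC windows and 10.1% of all. The interferon-stimulated response element GAAANNGAAA was in 3.09% and 3.24%. No LINC window held the sterol regulatory element TCACNCCAC or the PPAR response element AGGTCANAGGTCA, which were in 1.13% and 0.0156% of all. Median GC content was 53.3% in the LINC windows and 61.7% in all, with 8 and 20 CG pairs. These matches are a description of letters, not of binding.

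Windows of 5 LINC RNAs are shown. They belong to the largest rise among windows within 1 kb of the counted start (LINC02970), to the 3 largest such rises with an AP-1 motif (LINC01546, LINC02762, LINC01443) and to the largest such fall (LINC00662). Each is written 5′ to 3′ on the strand of the gene, and capitals mark the AP-1 motif. LINC02762 rose from 27, 34 and 13 counts to 51, 44 and 44, so that 1 siNC library reached 30 counts.
LINC02970 (chr20:62603392-62603691, minus strand): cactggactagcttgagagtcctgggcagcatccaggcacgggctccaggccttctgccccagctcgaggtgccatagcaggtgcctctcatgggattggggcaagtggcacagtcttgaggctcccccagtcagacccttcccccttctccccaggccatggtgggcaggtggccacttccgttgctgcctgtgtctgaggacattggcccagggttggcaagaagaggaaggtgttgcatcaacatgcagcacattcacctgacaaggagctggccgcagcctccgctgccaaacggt
LINC01546 (chrX:3271570-3271869, plus strand): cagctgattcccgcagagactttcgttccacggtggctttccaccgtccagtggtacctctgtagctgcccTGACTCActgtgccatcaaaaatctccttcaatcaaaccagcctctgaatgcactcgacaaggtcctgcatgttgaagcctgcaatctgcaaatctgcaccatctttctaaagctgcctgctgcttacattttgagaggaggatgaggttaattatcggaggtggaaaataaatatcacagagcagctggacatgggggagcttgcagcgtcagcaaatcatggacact
LINC02762 (chr11:112270499-112270798, plus strand): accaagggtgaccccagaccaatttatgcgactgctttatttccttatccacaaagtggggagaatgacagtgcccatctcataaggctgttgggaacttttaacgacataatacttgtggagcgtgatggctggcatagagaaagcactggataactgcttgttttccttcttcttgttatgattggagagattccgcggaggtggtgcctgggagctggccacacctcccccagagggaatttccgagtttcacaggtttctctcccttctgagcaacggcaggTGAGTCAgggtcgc
LINC01443 (chr18:14946017-14946316, plus strand): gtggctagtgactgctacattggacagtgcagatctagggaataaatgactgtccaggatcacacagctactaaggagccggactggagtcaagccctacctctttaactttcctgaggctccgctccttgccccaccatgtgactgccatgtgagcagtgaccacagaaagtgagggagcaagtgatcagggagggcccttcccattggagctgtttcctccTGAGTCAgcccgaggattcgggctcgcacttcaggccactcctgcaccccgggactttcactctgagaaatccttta
LINC00662 (chr19:27793891-27794190, minus strand): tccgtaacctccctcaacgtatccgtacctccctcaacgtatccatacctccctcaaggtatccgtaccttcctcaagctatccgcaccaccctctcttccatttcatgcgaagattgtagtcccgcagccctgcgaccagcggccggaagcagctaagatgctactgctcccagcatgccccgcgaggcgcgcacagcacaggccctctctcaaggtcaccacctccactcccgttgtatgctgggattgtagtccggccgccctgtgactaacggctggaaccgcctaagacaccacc
None of the motifs searched was found in the LINC02970 and LINC00662 windows. The LINC02970 window had 6 CG pairs and that of LINC00662 had 20.

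Long noncoding RNAs with names of their own were listed for comparison. Of 16, 12 were tested, 6 of them higher and 1 lower, beside 21.3% and 20.5% of all genes tested, with a median log2 fold change of 0.24. The nuclear RNAs MALAT1 and NEAT1, of nuclear speckles and paraspeckles, rose by 0.75 and 0.66. MALAT1 had 8218, 8527 and 9683 counts in siNC and 15204, 13479 and 12932 in siTRIM28. MIR22HG rose by 1.26, KCNQ1OT1 by 1.14, CRNDE by 0.30 and TUG1 by 0.30. BLACAT1, a bladder cancer associated RNA, fell from 52, 39 and 56 counts to 29, 16 and 16 (log2 fold change −1.17, SE 0.243, edgeR adjusted p = 0.00237). GAS5, CYTOR, DANCR, PVT1 and NORAD were not called, and UCA1, H19, HOTAIR and MEG3 were not tested.

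Genes of the nuclear RNA exosome and its adaptors, which degrade unstable nuclear transcripts, were also listed. Of 19 tested, 2 were higher, 5 lower and 12 not called, beside 21.3% higher and 20.5% lower among all genes tested, with a median log2 fold change of −0.03. EXOSC2, a cap subunit of the exosome, fell from 1370, 1321 and 1308 counts to 640, 557 and 576 (log2 fold change −1.07, SE 0.0535, edgeR adjusted p = 5.08e-08). PABPN1, the nuclear poly(A)-binding protein of the PAXT adaptor, fell by 0.62, and ZC3H3, EXOSC3 and EXOSC7 fell by 0.37, 0.31 and 0.29. ZFC3H1 and ZCCHC8, scaffolds of PAXT and NEXT, rose by 0.31 and 0.28. The part of these genes in the levels of LINC RNAs was not tested.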

How the data were processed

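RNA-seq of 6 T24 libraries was analysed, 3 siNC and 3 siTRIM28. Per the labels, reads were trimmed with fastp 0.23.1, aligned to GRCh38 with STAR 2.7.6a and counted with featureCounts. The authors deposited raw counts per gene with the gene length, without normalization. The annotation release, the strand setting and the handling of duplicate reads are not given in the sources used here. The deposited table of the authors' selected genes was not used.

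The quasi-likelihood test of edgeR 4.0.16 (glmQLFit, glmQLFTest, R 4.3.3) was run with TMM factors and the group as its single term over 18474 genes with at least 10 counts in 3 libraries, with Benjamini-Hochberg adjustment and a threshold of 0.05. SE is the absolute log2 fold change over the square root of F. RPKM is CPM per kb of deposited length. Depth limits a single value, at 11712623 to 14018052 counts per library. The p-values measure the spread between 3 libraries a group, labelled as biological replicates. The close pairs, with chi-square per degree of freedom of 1.08 and 1.24, differed by little more than counting noise. The spread within a group thus rests mostly on siNC replicate 3 and siTRIM28 replicate 1. With each close pair summed, 53 of the 137 LINC RNAs were called higher and 7 lower, beside 16.1% and 16.1% of all genes tested. The common biological coefficient of variation was 0.0733. The test was also run on counts simulated with the means and dispersions of these data, and the outcome is not given here. Overlap was read from gene spans of the deposited table, gene types from GENCODE v29, copies with blastn 2.17.0 and promoters from RefSeq. Same-numbered libraries of the groups share only a number.

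The LINC RNAs, lists and tests were chosen with earlier results of these data known. Named are the 12 largest rises and all 3 falls with an adjusted p under 0.05, a log2 fold change of at least 0.58 either way and groups that do not overlap, the 6 highest RPKM, the cancer list, RNAs at the count minimum or past it in 1 group only, TRIM28, and neighbours. Of the other calls, those named as examples were chosen after their values were seen. Alternatives were scaling by total counts, upper quartile or RLE, limma-voom (limma 3.58.1), DESeq2 1.42.0, other filters, a replicate block, each library left out, close pairs summed and other rules of membership. Figures used Python 3.11.15 and matplotlib 3.10.9.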

Additional observations from a re-analysis of the deposited data

How the results depend on the processing

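The count of LINC RNAs called lower (11 of 137) was the least stable. It was 7 with upper-quartile scaling, 7 with close pairs summed, 6 with DESeq2 and 5 at an adjusted p under 0.01. It was 1 among the 16 RNAs that overlap no other gene, and 6 to 13 when single libraries were left out. The number called in either direction (72 of 137) was 36 of 57 for members by 100 counts in 3 libraries and 12 of 16 without overlap. With a library left out it was 57 to 68. The count called higher (61 of 137) was 40 of 104 with 30 counts required in every library, 28 of 57 with 100 counts and 11 of 16 without overlap. These 3 rules keep fewer RNAs, so their counts are not lost calls. The 16 without overlap include rises, and LINC00317 as the 1 fall, that reached 30 counts in 1 group only. With a library left out the count was 51 to 57. Calls with a log2 fold change of at least 0.58 (50 of 137) numbered 30, 19 and 8 of the 104, 57 and 16 RNAs under the same 3 rules. The median of 0.27 was 0.30 with upper-quartile scaling, 0.23 by the mean of 30 counts, 0.17 with 30 counts in every library, 0.20 with 100 counts, 0.47 without overlap, 0.22 without the 10 RNAs at 30 counts in 1 group only (chosen after seeing the data), and 0.22 to 0.30 with a library left out.

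Replicate numbers did not pair the libraries, with deviation correlations of 0.052, −0.012 and 0.037 for equal numbers. With a replicate block 71 LINC RNAs were called, 60 higher and 11 lower.

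Among the 25 named LINC RNAs, 349 of 371 alternative values kept direction and side of the threshold. Reversed values were those of LINC02067 with upper-quartile scaling (0.0227), total counts (0.00760), close pairs summed (0.10) and without siNC replicate 1, siTRIM28 replicate 2 or 3 (−0.24 to 0.10 over all left-out libraries), of LINC00958 with upper-quartile scaling (0.00114) and without siTRIM28 replicate 1 (−0.086 to 0.037), and of LINC01766 without siNC replicate 3 (−0.10 to 0.35). LINC02951 lost its call in 7 alternatives, with adjusted p from 0.0651 (limma-voom) to 0.191 (DESeq2), LINC01234 in 2, LINC00317 in 2 and LINC00467 in 1. The cause was not tested. Counts limit the RNAs near 30 counts most, and reads shared by overlapping genes limit levels.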

Other observations

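Below the count minimum for the 137, 100 further LINC genes were tested, of which 25 were called higher and 1 lower in siTRIM28 (edgeR's quasi-likelihood test, Benjamini-Hochberg adjustment), with a median log2 fold change of 0.31 and log2 fold changes from −1.03 to 2.55. Their median of 14.2 counts per library limits these calls. Among all genes tested, with a median of 136 counts, 21.3% were called higher and 20.5% lower, and no share was taken at the lower count level. In 63 of the 1999 genes not tested (3.15%), every siTRIM28 library was above every siNC library, and in 18 (0.90%) below. Of the 1999, 931 had no count in any library. The share among untested genes of other names was not taken, so these counts have no background. Among the 137, GENCODE v29 gave 109 the type lincRNA, of which 52 were called higher and 8 lower, and gave 12 the type processed transcript, of which 5 were higher and 1 lower.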
